A study of Mus musculus with 6 samples.

Results

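Complement components and receptors were followed as 9 genes, C1qa, C1qb, C1qc, C3, C4b, Cfb, Cfp, C3ar1 and C5ar1, found by gene symbol among the 38207 genes and loci of the deposited count table. Each symbol stood on 1 line, and all 9 genes passed the filter on low counts. The 6 libraries were nanopore cDNA libraries from microglia of the brain of wild-type mice, 3 from sham-operated mice and 3 from mice that underwent tMCAO, an abbreviation usually read as transient occlusion of the middle cerebral artery, which models ischemic stroke. Each library pooled cells of 30 mice, so the values describe pools and not single animals. Age, sex, cell isolation and the interval between surgery and sampling were not given in the sources used here. The groups shared genotype and tissue and differed by the surgery.

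Complement is a cascade of plasma and tissue proteins that tags targets for uptake by phagocytes. In the classical pathway C1q, built of the chains A, B and C, binds a target, and cleavage of C4 and C2 follows. In the alternative pathway factor B and C3 form a convertase that properdin, the product of Cfp, stabilises. Cleavage of C3 and C5 releases the small peptides C3a and C5a, which act on the receptors encoded by C3ar1 and C5ar1. In brain, microglia are the main source of C1q, and C1q and C3 are known for the tagging of synapses that microglia remove.

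The sham libraries held 2371235, 2522812 and 2614512 counts and the tMCAO libraries 2030550, 1855495 and 1877780 (in the order 1 to 3, as in all values listed by group). Levels are given in CPM, which are counts scaled to the same library total, and 3 counts correspond to between 1.15 and 1.62 CPM. On the first principal component (54.1% of the variance) the groups were apart, and on the second (19.8%) tMCAO 3 lay at 0.44, away from the other tMCAO libraries at -0.27 and -0.21, and sham 1 at 0.16, away from the other sham libraries at -0.04 and -0.07. All 15 microglial markers examined were detected. Their summed level was 36147 to 37845 CPM in sham and 30847 to 34609 CPM in tMCAO, and 6 of them fell by edgeR's test, as by limma voom and DESeq2. None rose by these tools, also at an unadjusted p under 0.05. Over all genes and loci tested, edgeR called 8.96% lower and 9.17% higher. Markers of other cells were present in both groups, and of all those listed Gad2 alone, a neuronal marker, was at 0 in every library. Choroid plexus markers summed to 8627 to 44624 CPM in sham and 2276 to 9961 CPM in tMCAO. In sham 2 that sum was above the microglial sum of 36147 CPM. Erythroid markers summed to 955 to 6041 CPM in sham and 215 to 380 CPM in tMCAO. The sum of border macrophage markers, given below, was higher in every tMCAO library than in any sham library. That of monocyte markers was higher in tMCAO 1 and tMCAO 2, while tMCAO 3 lay level with sham 2 (133.7 and 133.6 CPM). In bulk pools such as these, fewer cells of a type and less RNA per cell cannot be told apart.

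Of the 9 complement genes, 7 rose after tMCAO and none fell, by edgeR's quasi-likelihood test with Benjamini-Hochberg adjusted p under 0.05, and none was lower at an unadjusted p under 0.05 or by DESeq2 or limma voom. Over all 13127 genes and loci tested, 9.17% were called higher and 8.96% lower, 18.1% together. Higher genes made up 50.6% of all calls, 63.2% with library totals as the only scaling and 42.2% with upper-quartile scaling. The largest rises were those of Cfb (19.8-fold) and C4b (16.8-fold), followed by C3 (5.64-fold) and Cfp (4.26-fold). Both receptor genes rose less, C5ar1 1.94-fold and C3ar1 1.52-fold. Among the C1q chains, C1qc rose 1.44-fold, while C1qb and C1qa did not pass the test. The median log2 fold change was 0.96 over the 9 genes and 0.00 over all genes tested. For the 7 genes called, every tMCAO library lay above every sham library. The same held for 23.3% of all genes tested, and 37.8% had groups that did not overlap in either direction.

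**Figure D1:**
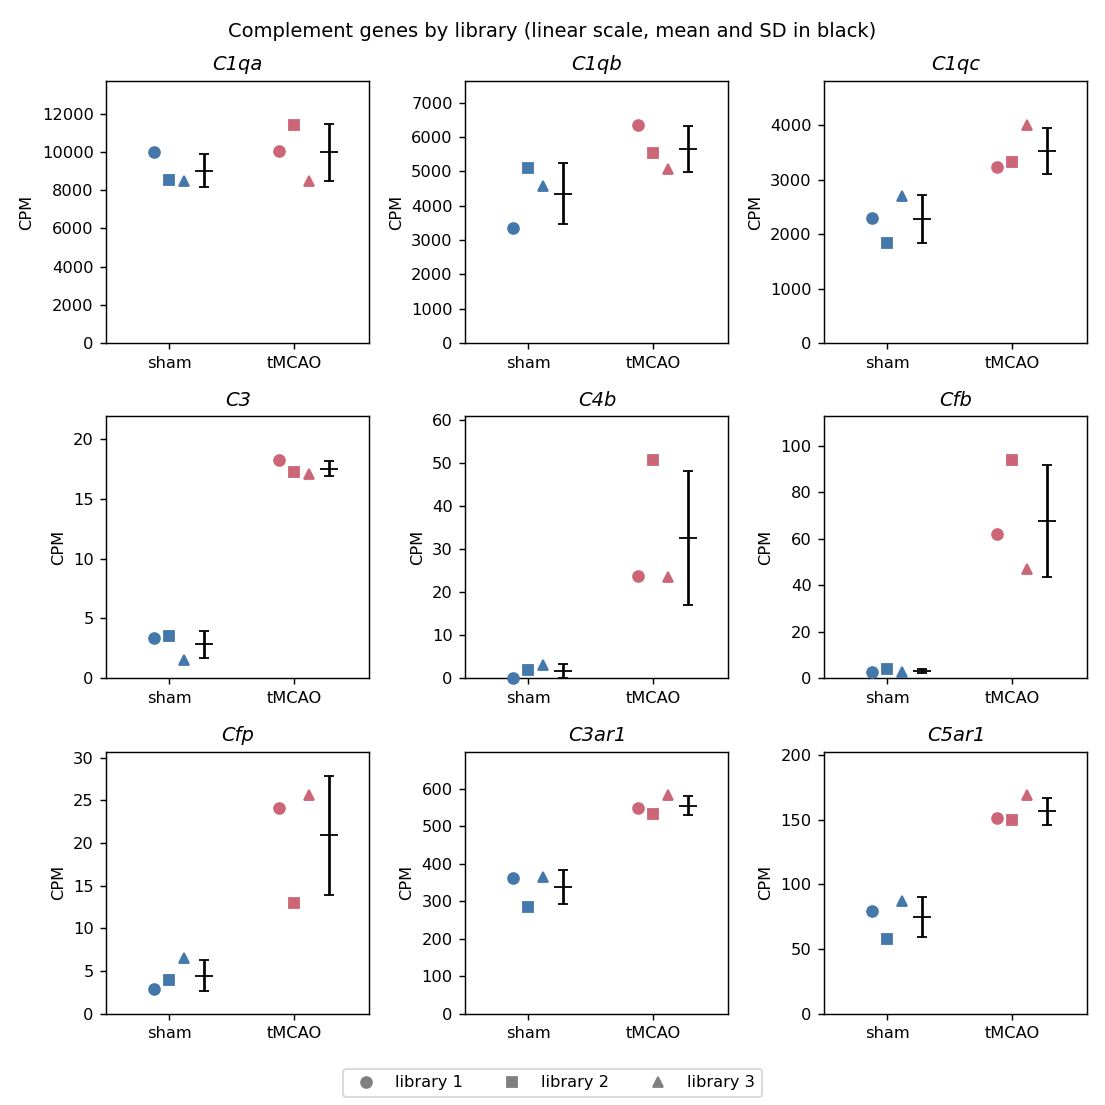
CPM of the 9 complement genes in each of the 6 libraries, on a linear axis from 0 with its own range per gene. Coloured points are libraries (shapes mark library numbers), and black bars give the mean and SD of 3 libraries. The groups overlap for C1qa and C1qb and lie apart for the other 7 genes.

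The C1q chain genes had the highest read numbers of the 9 in every library. C1qa, which encodes chain A, stood at 10016, 8545 and 8499 CPM in sham and at 10036, 11441 and 8488 CPM in tMCAO. The groups overlapped, since sham 1 was above tMCAO 3, and the log2 fold change (tMCAO over sham, with its standard error, SE) was 0.02 ± 0.12 (edgeR adjusted p = 0.918), turning to -0.05 with upper-quartile scaling. C1qb, for chain B, stood at 3362, 5095 and 4588 CPM in sham and at 6365, 5534 and 5061 CPM in tMCAO. Here sham 1 was the lowest library, tMCAO 3 lay just under sham 2, and the log2 fold change of 0.25 ± 0.16 did not pass the test (edgeR adjusted p = 0.306). It was 0.07 without sham 1 and 0.41 without sham 2.

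C1qc, for chain C, stood at 2301, 1837 and 2708 CPM in sham and at 3237, 3328 and 4014 CPM in tMCAO. All tMCAO libraries were above all sham libraries, tMCAO 3 the highest, and the rise of 0.52 ± 0.16 on the log2 scale passed narrowly (edgeR adjusted p = 0.0359). The call was lost without sham 1 (0.135), sham 2 (0.129) or tMCAO 3 (0.0522), with upper-quartile scaling (0.0736), with DESeq2 (0.0648) and without sham 1 and tMCAO 3 together (0.18). Over all alternatives its edgeR, DESeq2 or voom adjusted p began at 0.000145 and its log2 fold change ran from 0.36 to 0.63.

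Together the 3 chains held 1.57%, 1.55% and 1.58% of all counts in sham and 1.96%, 2.03% and 1.76% in tMCAO. The groups did not overlap, and their means differed by 0.352 percentage points, and by 0.213 with effective library sizes from TMM scaling. The two-sided exact permutation test over 3 libraries against 3 gave p = 0.1, the smallest it allows (0.25 adjusted over 5 such tests). Within the C1q counts, which are reads and not levels per length, chain A took 63.9%, 55.2% and 53.8% in sham and 51.1%, 56.4% and 48.3% in tMCAO. Chain C took 14.7%, 11.9% and 17.1% in sham and 16.5%, 16.4% and 22.9% in tMCAO. The balance of the chains varied from library to library as much as between groups, with sham 1 richest in chain A and tMCAO 3 richest in chain C. For chains A, B and C the exact permutation p was 0.3, 0.9 and 0.3. The difference in chain A was -5.71 percentage points, -2.58 without sham 1 and -0.783 without sham 1 and tMCAO 3. The difference in chain C was 4.01 points and 1.88 without tMCAO 3.

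**Figure D2:**
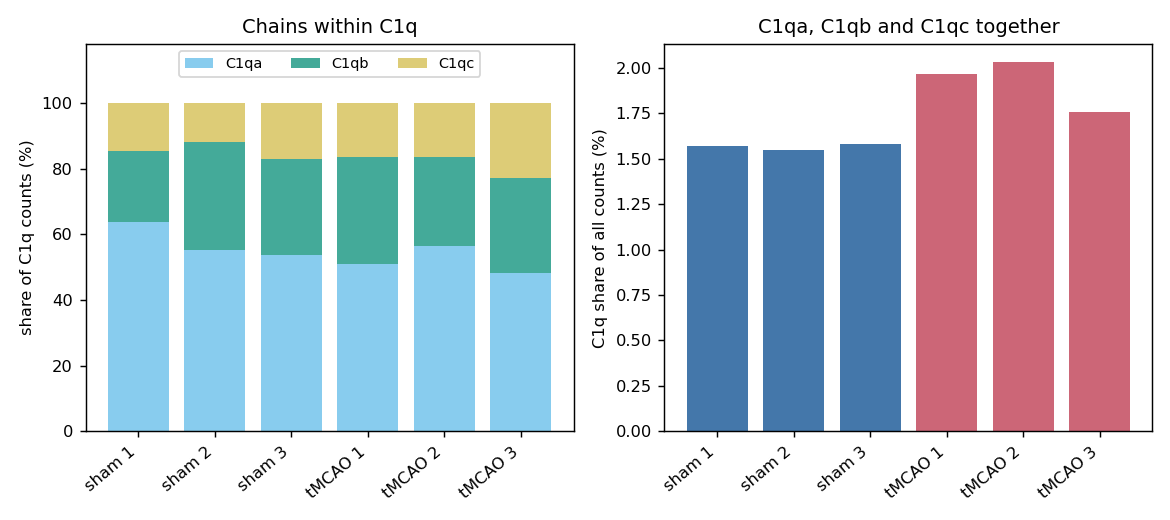
Left, share of C1q counts (%) that belonged to C1qa, C1qb and C1qc in each library. Right, share of all counts (%) held by the 3 chains together, 1.55% to 1.58% in the sham libraries and 1.76% to 2.03% in the tMCAO libraries.

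C4b, which encodes the C4 protein cleaved by the classical and lectin pathways, was near the limit of detection in sham. Its counts were 0, 5 and 8 in sham and 48, 94 and 44 in tMCAO, or 0, 1.98 and 3.06 CPM against 23.6, 50.7 and 23.4 CPM. All tMCAO libraries were above all sham libraries, and tMCAO 2 held about as many reads as the other tMCAO libraries together. The rise was 4.07 ± 0.62 on the log2 scale (edgeR adjusted p = 0.00314). Over all alternatives it ran from 3.51 (without sham 1) to 4.76 (without sham 3). C4b has a close paralog, C4a, which was not analysed here, so reads of that paralog could have been counted under C4b. Astrocytes and oligodendrocytes are also known to express C4b. In the same libraries the summed level of 10 astrocyte markers was lower in tMCAO (140.0 to 419 CPM in sham, 64.5 to 91.1 in tMCAO), and that of 10 oligodendrocyte markers was 196 to 1071 CPM in sham and 155 to 372 in tMCAO. The part of these cells in the level of C4b was not tested.

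C3, the central protein of the cascade, also had few reads. Its counts were 8, 9 and 4 in sham and 37, 32 and 32 in tMCAO, or 3.37, 3.57 and 1.53 CPM against 18.2, 17.2 and 17.0 CPM. The tMCAO libraries lay close together and far above all sham libraries, although their exact Poisson intervals (95%, counting error only) were wide, from 12.8 to 25.1 CPM in tMCAO 1. C3 rose by 2.50 ± 0.37 on the log2 scale (edgeR adjusted p = 0.000656).

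Cfb, which encodes factor B, the protease part of the alternative C3 convertase, had the largest and most certain rise. Its counts were 6, 10 and 7 in sham and 126, 174 and 88 in tMCAO, or 2.53, 3.96 and 2.68 CPM against 62.1, 93.8 and 46.9 CPM. The groups lay far apart, with tMCAO 2 highest and tMCAO 3 lowest of the tMCAO libraries, and the rise was 4.31 ± 0.32 on the log2 scale (edgeR adjusted p = 5.5e-06). Cfb overlaps the gene model Gm20547 on the same strand in GENCODE M21, and 1 read in all 6 libraries was counted there.

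Cfp encodes properdin, a stabiliser of the convertase. Its counts were 7, 10 and 17 in sham and 49, 24 and 48 in tMCAO, or 2.95, 3.96 and 6.50 CPM against 24.1, 12.9 and 25.6 CPM. Here tMCAO 2 was the lowest tMCAO library, the opposite of Cfb and C4b, and the rise was 2.09 ± 0.38 on the log2 scale (edgeR adjusted p = 0.00269). Properdin is also made by neutrophils and monocytes. The summed level of 12 neutrophil markers was 1897, 1922 and 2418 CPM in sham and 1896, 442 and 1010 CPM in tMCAO. That of 10 monocyte markers was 104, 134 and 90.3 CPM in sham and 318, 161 and 134 CPM in tMCAO. Sham 3, the highest sham library for Cfp, was highest for the neutrophil and lowest for the monocyte markers. For Cfp, tMCAO 1 and tMCAO 3 had 49 and 48 reads. Their exact Poisson intervals overlapped, at 17.9 to 31.9 and 18.8 to 33.9 CPM, so their order was not resolved. Of the tMCAO libraries, tMCAO 1 was highest for both marker sums and tMCAO 3 for neither. The lowest tMCAO library was tMCAO 2 for Cfp and the neutrophil markers and tMCAO 3 for the monocyte markers. The part of these cells in the level of Cfp was not tested. Of the 11 neutrophil markers tested, 2 fell after tMCAO by edgeR's test. None rose by edgeR, DESeq2 or limma voom, also at an unadjusted p under 0.05. Over all genes and loci tested, edgeR called 8.96% lower and 9.17% higher.

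The sequences before the start sites of C3 and Cfp, which rose, and of C1qb, which did not pass the test, are shown for comparison, since the genes belong to 1 cascade and moved by different amounts. They are the 250 bases upstream of the RefSeq start (GRCm38.p6), 5′ to 3′ on the gene's strand, with a match to one of 5 searched motifs in capitals (1 match, in C3).
C3 (chr17:57228137-57228386, minus strand): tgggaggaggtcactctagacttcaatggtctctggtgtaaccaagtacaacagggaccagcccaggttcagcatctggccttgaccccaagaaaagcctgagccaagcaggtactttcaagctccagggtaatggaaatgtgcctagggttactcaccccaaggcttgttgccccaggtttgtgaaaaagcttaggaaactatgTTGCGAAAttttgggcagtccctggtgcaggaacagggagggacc
Cfp (chrX:20931556-20931805, minus strand): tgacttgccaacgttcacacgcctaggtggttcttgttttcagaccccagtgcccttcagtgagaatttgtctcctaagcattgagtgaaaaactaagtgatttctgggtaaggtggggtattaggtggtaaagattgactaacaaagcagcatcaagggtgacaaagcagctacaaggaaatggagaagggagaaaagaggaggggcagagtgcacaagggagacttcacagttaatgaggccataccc
C1qb (chr4:136886201-136886450, minus strand): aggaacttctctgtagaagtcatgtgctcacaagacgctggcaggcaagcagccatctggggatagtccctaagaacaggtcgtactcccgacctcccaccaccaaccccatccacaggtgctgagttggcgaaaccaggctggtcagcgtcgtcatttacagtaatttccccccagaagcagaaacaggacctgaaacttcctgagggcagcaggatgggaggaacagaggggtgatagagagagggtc

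Of the 9 genes, 6 had such a window in the RefSeq table (C1qb, C1qc, C3, Cfp, C3ar1 and C5ar1). They were searched on both strands for the letters GAAA, any 2 bases, GAAA (interferon-stimulated response element), TTCNNNGAA (STAT site), GGGA, any 2 bases, TTCC (NF-kB), GAGGAAG (PU.1, the myeloid factor) and TTGCNNAA (C/EBP). The window of C3 held 1 C/EBP match, 45 bases before the start, and that of C1qc held 1 PU.1 match. No other match was found in the 6 windows. Of 32851 windows of the same length, 2.98% held the interferon element, 7.02% the STAT site, 1.21% the NF-kB letters, 10.6% the PU.1 letters and 9.56% the C/EBP letters. No match overlapped another, and the matches describe letters only.

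C3ar1 and C5ar1 encode the receptors for C3a and C5a, G protein-coupled receptors of myeloid cells. C3ar1 stood at 362, 285 and 366 CPM in sham and at 548, 534 and 583 CPM in tMCAO. The groups lay apart, and the rise was 0.61 ± 0.15 on the log2 scale (edgeR adjusted p = 0.0135). The call was lost without sham 1 (0.0572), without sham 2 (0.0626) and without sham 1 and tMCAO 3 together (0.0519), with log2 fold changes of 0.52 to 0.71 over all alternatives (adjusted p from 0.000304 to 0.0626). C5ar1 stood at 79.3, 57.5 and 87.2 CPM in sham and at 151, 149.8 and 169 CPM in tMCAO. Its groups also lay apart, and it rose by 0.96 ± 0.18 on the log2 scale (edgeR adjusted p = 0.00314), a call that every alternative run kept. Within both groups, library 2 was the lowest and library 3 the highest for both receptor genes. The log2 ratio of C5ar1 to C3ar1 counts was -2.19, -2.31 and -2.07 in sham and -1.86, -1.83 and -1.79 in tMCAO. It was higher in all 3 tMCAO libraries, by 0.36 (two-sided exact permutation p = 0.1, the smallest possible, 0.25 adjusted over 5 tests).

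**Figure D3:**
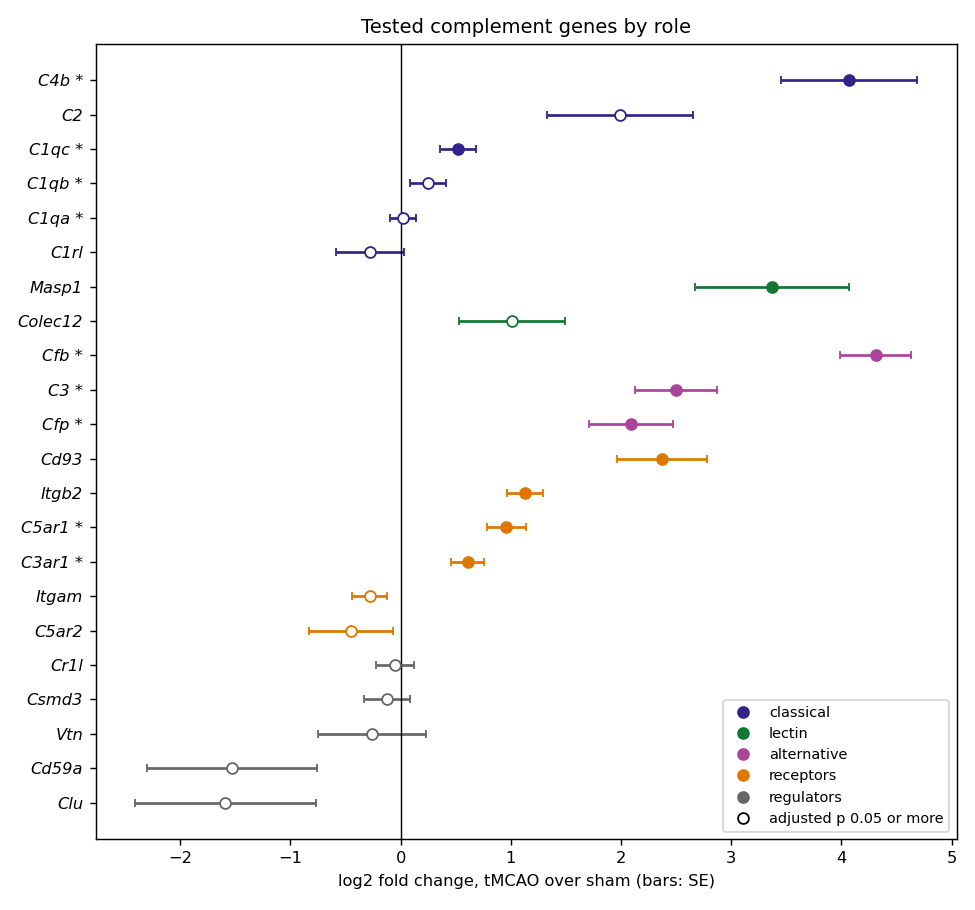
Log2 fold change (tMCAO over sham) with its SE for 22 of the 23 complement genes that were tested, grouped by role. Filled points have an adjusted p under 0.05 and asterisks mark the 9 genes followed. Filled points lie to the right of 0 among components and receptors, and the 5 regulators drawn are open.

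The wider cascade was read from a list of 60 complement genes that includes these 9. Of them, 59 were in the table, 40 had at least 1 read and 23 were tested. By edgeR's test 10 rose, the 7 above and Masp1, Cd93 and Itgb2, and none fell (1 was lower at an unadjusted p under 0.05, 1 by DESeq2 and 0 by limma voom). Outside the 9, edgeR called 3 of 14 tested genes higher and 0 lower. Over all genes and loci tested it called 9.17% higher and 8.96% lower. The median log2 fold change of the 14 tested genes other than the 9 was -0.19, against 0.00 over all genes tested.

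Among the other classical and lectin pathway genes, Masp1, a protease of the lectin pathway, had 2, 1 and 0 counts in sham and 10, 9 and 10 in tMCAO. The groups lay apart, at a ratio of summed levels of 12.6 (exact 95% interval 3.9 to 64.6, counting error only) and a log2 fold change of 3.37 ± 0.70 (edgeR adjusted p = 0.00584), which was 4.21 without sham 1 and 2.78 without sham 3. C2, the partner of C4 in the classical convertase and a neighbour of Cfb, had 6, 3 and 0 counts in sham and 10, 12 and 9 in tMCAO. Its value of 1.99 ± 0.66 missed the threshold (edgeR adjusted p = 0.0538), and it passed with library totals (0.0496), without a filter on low counts (0.0108) and without sham 1 and tMCAO 3 together (0.0403), with adjusted p from 0.0108 to 0.17 over all alternatives. Its log2 fold change was 2.94 without sham 1 and 1.37 without sham 3. C1rl (-0.28 ± 0.31) and the collectin gene Colec12 (1.01 ± 0.48) did not pass.

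The classical pathway proteases C1ra, C1rb and C1s1, Cfd, which encodes factor D, and the genes of the terminal pathway (Hc, the C5 gene, C6, C7, C8a, C8b, C8g and C9) had too few reads for a test. Cfd was at 0 in all 6 libraries, which allows up to 1.15 to 1.62 CPM per library. Hc had 1 read in sham 3 and 1 in tMCAO 2. A difference in Hc was thus not detectable at this depth.

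Among other receptors, Itgb2, the shared beta chain of the leukocyte integrins and of complement receptor 3, rose from 122, 93.9 and 107 CPM in sham to 251, 243 and 273 CPM in tMCAO (1.13 ± 0.16, edgeR adjusted p = 0.000579). Itgam, its alpha partner in that receptor, stood at 156, 127 and 147 CPM in sham and 144, 122 and 119 in tMCAO, so the groups overlapped, with a value of -0.28 ± 0.16 (edgeR adjusted p = 0.24). Cd93, a surface lectin once proposed as a C1q receptor, rose from 2.53, 1.98 and 1.53 CPM to 10.3, 9.70 and 14.4 CPM (2.37 ± 0.41, edgeR adjusted p = 0.0019). C5ar2, the second C5a receptor gene, did not pass (-0.45 ± 0.38, edgeR adjusted p = 0.456).

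None of the 6 tested regulators, which restrain the cascade, passed edgeR's test (1 was lower at an unadjusted p under 0.05, and DESeq2 and limma voom called 1 and 0 lower). Over all genes and loci tested, edgeR called 18.1% in either direction, so 0 of 6 does not set the regulators apart. Cr1l, the rodent membrane inhibitor Crry, was at 104 to 109 CPM in sham and 103 to 127 CPM in tMCAO (-0.05 ± 0.17, and 0.06 with library totals). Clu (-1.59 ± 0.82) and Cd59a (-1.53 ± 0.77) varied most, at 65.4 and 49.5 CPM in sham 2. Without sham 2 their log2 fold changes were -0.83 and -0.64, and without tMCAO 3 that of Cd59a was -2.18. Sham 2 was also the highest of the 6 libraries in summed astrocyte (419 CPM), oligodendrocyte (1071), choroid plexus (44624), erythroid (6041) and lymphocyte (47.6) markers. The part of those cells was not tested. DESeq2 called Cd59a lower (adjusted p = 0.0402, and 0.0402 to 0.469 over all alternatives).

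Markers of other macrophages moved with the complement genes. Of 9 tested markers of border-associated macrophages 5 rose and none fell by edgeR's test (1 was lower at an unadjusted p under 0.05, and none by DESeq2 or limma voom), and their summed level was 290 to 377 CPM in sham and 628 to 756 CPM in tMCAO. DESeq2 called 5 of these markers higher and limma voom 3. Over all genes and loci tested, edgeR called 9.17% higher. Of 8 tested monocyte markers 4 rose by edgeR's test, and none fell by edgeR, DESeq2 or limma voom, also at an unadjusted p under 0.05, with sums of 90.3 to 134 CPM in sham and 134 to 318 in tMCAO. DESeq2 called 4 monocyte markers higher and limma voom 3. No marker of these lists was at 0 in every library. The part of these cells in the rise of the complement genes was not tested.

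How each gene's level ran over the 6 libraries was compared by the root-mean-square difference (RMS) of centred log2 CPM, as a description with no test. Cfb and C4b lay at an RMS of 0.63 from each other, the smallest for either among the 9, and C3ar1 lay closest to C1qc (0.10) and C5ar1 (0.19). Among 5264 other annotated genes whose log2 CPM averaged 4 or more, the nearest to Cfb were Irf7 (0.23), a transcription factor of the interferon response, Ifit2 (0.28), an interferon-induced antiviral gene, and Slc2a6 (0.31), a hexose transporter gene. The nearest to C4b were Ifit2 (0.43), the lipid carrier gene Apoe (0.49) and the interferon-inducible Ifi207 (0.55). Those to Cfp were the chemokine genes Cxcl10 (0.26) and Cxcl2 (0.28) and the interferon-induced Ifitm2 (0.28).

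C3 ran closest to Clcn7 (0.12), a lysosomal chloride transporter gene, Cks1b (0.18), a partner of cyclin-dependent kinases, and Sdc3 (0.22), a syndecan. C1qc ran closest to Lpcat3, Slamf6 and Lcp2 (0.04 to 0.06), C3ar1 to Fbl, Slamf9 and Ly6e (0.03 to 0.05), and C5ar1 to Alas1, Gsap and Sf3b4 (0.07 to 0.09). C1qa ran closest to Kin, Fbxl4 and Ccnt1 (0.05 to 0.07) and C1qb to Cpsf6, Psmd7 and Uchl3 (0.07 to 0.08). Genes with small changes have many close neighbours on this measure, which mostly follows the size of the fold change.

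**Figure D4:**
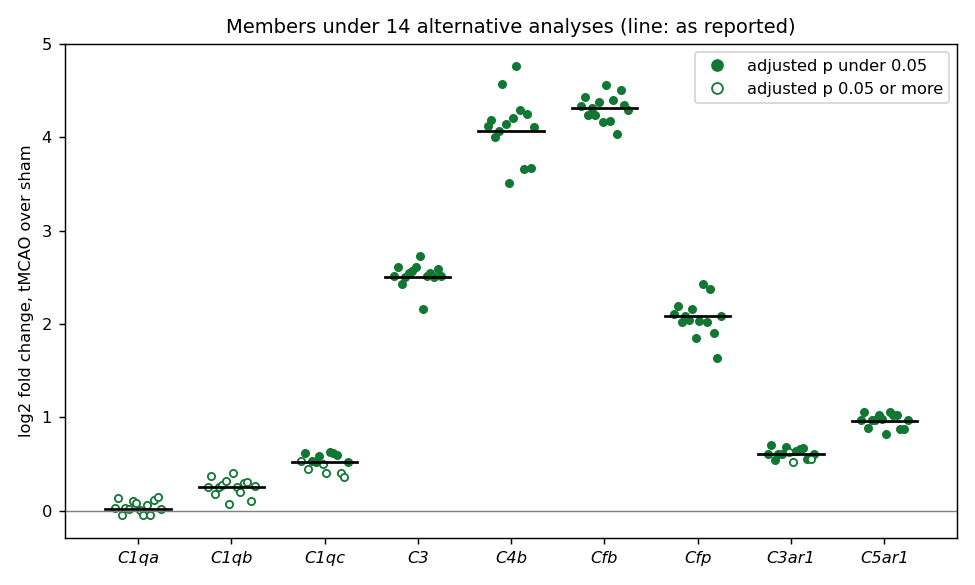
Log2 fold change (tMCAO over sham) of the 9 genes under each of 14 alternative analyses (points), with the reported value as a line. Filled points have an adjusted p under 0.05. C3, C4b, Cfb, Cfp and C5ar1 are filled throughout, C1qc and C3ar1 are mixed, and C1qa and C1qb are open throughout.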

How the data were processed

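Nanopore cDNA-PCR libraries were made from RNA extracted with TRIzol, per the labels' protocols, which speak of tissue where the series speaks of isolated microglia. The submitters' processing notes name minimap2. Build, annotation, counting rule and strand use were not given in the sources used here. The deposited table holds raw counts per gene and, per the file headers, CPM that the authors scaled by library totals. They differed by at most 4.87e-06 from CPM recomputed from the counts. Of 38219 lines, 12 held spilled text and no values and were left out.

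Counts were tested with edgeR 4.0.16 (R 4.3.3) after filterByExpr (minimum count 10, total 15), with TMM scaling, robust dispersions and group as the only term. Calls used a Benjamini-Hochberg adjusted p under 0.05 over 13127 genes, and the SE is the log2 fold change divided by the square root of F. The biological coefficient of variation was 22.6%. Single values were compared by exact permutation of libraries. DESeq2 1.42.0, limma 3.58.1 (voom), other scalings, no filter, left-out libraries and a replicate block were alternatives. The code was tested on simulated data.

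The 9 genes, the lists and the tests were chosen with earlier results of these data known. Named were these 9, other complement genes that passed the test together with Hc, Cfd, Itgam, Itgb2, C2 and C5ar2 in any case, and the 3 genes nearest to each of the 9. C1rl, Colec12, Clu, Cd59a, Cr1l, Vtn, Csmd3, Cd55, Itgax and Gad2 were named after their values were seen. So were the untested classical pathway proteases and the terminal pathway genes other than Hc. Of the genes the rule names, 1 is not reported here. Replicate pairs differed by more than sampling noise (chi-square per degree of freedom 5.85 to 12.6). Whether pools were prepared side by side is not stated, so the p-values reflect variation among these pools, which may be technical. Reads carry no molecular identifiers.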

Additional observations from a re-analysis of the deposited data

How the results depend on the processing

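Of the 9 complement genes, C3, C4b, Cfb, Cfp and C5ar1 kept their direction and call in all 14 alternatives, and the number called higher was 5 to 7 with any library left out, with none lower. Left-out libraries moved the count of complement genes called higher from 10 to between 8 and 10. C1qa, never called, turned to -0.05 with upper-quartile scaling and ran from -0.05 to 0.12 with a library left out (negative without sham 3, and -0.04 without tMCAO 2). The difference in the C1qb share, 1.69 points, became -1.15 without sham 1 and tMCAO 3 together and ran from -1.49 (without sham 1) upward with a library left out, to 4.25. Among regulators, all uncalled, Cr1l turned to 0.06 with library totals and 0.02 without a filter (-0.17 to 0.05, with 0.03 without tMCAO 2, when a library was left out), Vtn ran from -0.68 to 0.07 (0.01 without tMCAO 1) and Csmd3 from -0.29 to 0.01.

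The count of changed genes, 2380, was 4039 without a filter, where 31736 were tested, and 1573 without sham 1 and tMCAO 3. With a library left out it ran from 1254 (without sham 1; 1558 without sham 3) to 2590. Complement genes called lower went from 0 to 1 with DESeq2 (Cd59a) and to 1 without a filter (Cd55, -2.82). Itgax, below the filter with all 6 libraries, was called higher without a filter (1.67) and without tMCAO 3 (1.78). The cause of these shifts in calls was not tested. Library totals moved the median of all genes to 0.11 on the log2 scale.

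Deviations of same-numbered libraries from their group means correlated at -0.21, 0.02 and -0.17, and sham 1 correlated best with tMCAO 3 (0.25). With 3 libraries per group these correlations depend on each other, so they cannot decide whether the libraries were paired. With the replicate block 1662 genes were called, 7 of the 9 complement genes among them. Depth limits C3, C4b, Cfb and Cfp in sham, at 0 to 17 counts per library.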
